A study of Mus musculus with 11 samples.

Results

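TGF-beta signalling was followed through 8 genes of the mouse hippocampus: the ligands Tgfb1, Tgfb2 and Tgfb3, the receptors Tgfbr1 and Tgfbr2, the receptor-activated Smad2 and Smad3, and the inhibitory Smad7. They were taken by symbol from a table of 22377 genes, all 8 were found, and all 8 were among the 16057 genes with a mean of at least 1 CPM that entered the tests. Levels are in CPM, which relate a gene's reads to all reads of its library. The set was selected on these data, because Tgfbr2 stood higher on the infarcted side in 5 of 5 pairs of libraries, so the differences between sides are a description for these genes and carry no p-value.

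The ligands are secreted in a latent form and, once released, bind the type II receptor Tgfbr2, which recruits and phosphorylates the type I receptor Tgfbr1. Activated Tgfbr1 phosphorylates Smad2 and Smad3, which enter the nucleus with Smad4 and regulate target genes, among them Smad7, which blocks the receptor and so closes a negative feedback loop. In brain, TGF-beta signals to astrocytes, vessel cells and neurons and is needed by microglia to keep their adult state, and signalling in astrocytes after leakage of the blood-brain barrier has been studied as a route to epilepsy after vessel injury.

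CAGE, an assay that reads the capped 5′ ends of transcripts, was applied to RNA of whole hippocampi from male C57BL/6N mice. Photothrombosis (PT) closed vessels of the left parietal cortex by LED light (565 nm, 30 min, a circle of 3.5 mm) after rose bengal at 35 mg/kg, and the anti-seizure drug levetiracetam (LEV), a ligand of the vesicle protein SV2A, was put in drinking water at 5 mg/mL. There were 11 libraries in 11 groups of 1: the infarcted and the non-infarcted side at PT 7 d LEV, PT 7 d, PT 1 m LEV, PT 1 m and PT 2 m after LEV withdrawal, and 1 library of naive mice. No group had a replicate, so that sides were tested across conditions, and drug and time across the condition means. All groups share the strain and sex; the naive mice are not said to have had rose bengal or light. The PT 2 m mice had received LEV and were withdrawn for 2 weeks by the labels, and for 1 week by the series text. That text places the start of LEV at 1 month after PT, and the timing for the PT 7 d LEV mice is not given. It is not labelled if the sides share animals, how many animals were pooled, or which age of the series (8 to 10 or 65 to 85 weeks) a library had.

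Library totals ran between 13382623 and 22377376 reads, with 93.01% to 96.08% in listed genes, and 3 reads correspond to 0.134 to 0.224 CPM. The 8 genes were measured on 154 to 1077 reads per library, and intervals below are exact Poisson 95% intervals, which cover counting error only. All 12 marker genes of hippocampal neurons were detected in all 11 libraries, with summed levels of 1406 to 2537 CPM. Choroid plexus markers, 8 genes of the tissue that makes cerebrospinal fluid, were low in 2 libraries, with summed levels of 55.8 CPM (PT 1 m infarcted) and 103 CPM (PT 1 m LEV non-infarcted), and summed to 1260 to 4806 CPM in the other 9. In these bulk samples, fewer cells of a type and less RNA per cell cannot be told apart. In 18.7% of the tested genes, and in 0 of the 8 TGF-beta genes, the naive and 1 m libraries stood apart from all 7 d and 2 m libraries. A batch and the time after PT cannot be told apart for any gene, with or without that pattern.

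The start regions of both receptors and of Tgfb2 are shown because the receptors were higher on the infarcted side in most pairs, while Tgfb2 stayed almost level. They are the 250 bases before the gene start of RefSeq (GRCm38.p6), 5′ to 3′ on the gene's strand, with capitals marking every match to CAGAC (a motif that holds the core bound by SMAD proteins), TATAAA or CCAAT on either strand. The windows are chr9:116175364-116175613 (minus strand) for Tgfbr2, chr4:47352972-47353221 (plus strand) for Tgfbr1 and chr1:186705990-186706239 (minus strand) for Tgfb2.

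Tgfbr2: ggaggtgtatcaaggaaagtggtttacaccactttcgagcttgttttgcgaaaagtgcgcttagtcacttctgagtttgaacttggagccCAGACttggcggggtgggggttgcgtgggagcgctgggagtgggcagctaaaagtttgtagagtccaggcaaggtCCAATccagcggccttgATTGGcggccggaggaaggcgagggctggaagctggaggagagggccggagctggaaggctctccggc
Tgfbr1: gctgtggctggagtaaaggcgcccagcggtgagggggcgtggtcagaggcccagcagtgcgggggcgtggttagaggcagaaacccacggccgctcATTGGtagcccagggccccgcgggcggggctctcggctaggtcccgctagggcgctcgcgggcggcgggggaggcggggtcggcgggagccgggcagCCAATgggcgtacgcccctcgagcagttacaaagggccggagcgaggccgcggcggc
Tgfb2: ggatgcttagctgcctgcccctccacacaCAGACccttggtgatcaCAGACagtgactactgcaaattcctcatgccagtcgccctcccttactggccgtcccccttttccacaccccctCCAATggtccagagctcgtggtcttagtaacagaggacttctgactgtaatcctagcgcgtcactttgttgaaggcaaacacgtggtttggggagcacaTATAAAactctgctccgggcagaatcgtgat

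Tgfbr2 held 1 CAGAC, whose first base lies at -160 from the start, and CCAAT boxes at -85 and, on the other strand, at -68. Tgfbr1 held 2 CCAAT boxes and no CAGAC or TATAAA in this window, and a second RefSeq start region of the gene (chr4:47385966-47386265) held 1 CAGAC and 1 CCAAT. Tgfb2 held CAGAC at -221 and -204, a CCAAT box at -130 and TATAAA at -31. Over 300 base windows (250 before to 50 after the start), CAGAC or its reverse complement GTCTG occurred in 49.6% of 32851 RefSeq promoters, CCAAT or ATTGG in 37.4% and TATAAA or TTTATA in 13.6%. The palindrome GTCTAGAC, a doubled SMAD motif found in 0.2% of promoters, and TGACTCA (or TGAGTCA), the AP-1 motif found in 5.2%, were in none of the windows matched to the set. The windows of Tgfb1 (GC 77.0%) and Smad3 (GC 67.7%) held none of these motifs, against a median GC of 52.7% over all promoters. Of the 8 genes, 5 were matched to a promoter there; Tgfb3, Smad2 and Smad7 are named only. A match to such short motifs is a description of the letters and not a binding site.

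Tgfbr2 (ENSMUSG00000032440.13, chr9:116084293-116175360, minus strand, GRCm38), the type II receptor that all 3 ligands need, was higher on the infarcted side in each of the 5 conditions. Its level was 27.7, 24.2, 22.0, 21.2 and 22.2 CPM on the infarcted side at PT 7 d LEV, PT 7 d, PT 1 m LEV, PT 1 m and PT 2 m withdrawn, against 20.8, 16.9, 15.4, 19.8 and 15.8 CPM on the non-infarcted side. The lowest infarcted library lay just above the highest non-infarcted one, so the levels of the sides did not overlap. The counting intervals of those libraries did, at 18.8 to 23.8 CPM (PT 1 m infarcted) and 18.7 to 23.0 CPM (PT 7 d LEV non-infarcted). The mean log2 difference was 0.39 ± 0.17 (SD, n = 5 pairs), or 1.31-fold, with single pairs between 0.095 and 0.49. In 4 of 5 pairs the counting intervals of the sides were apart, and the pair in which they overlapped was PT 1 m, with 18.8 to 23.8 CPM on the infarcted and 17.5 to 22.3 CPM on the non-infarcted side. Without the PT 1 m pair the mean was 0.46, and over all alternatives it ran between 0.33 and 0.46. Naive hippocampus had 20.5 CPM (18.2 to 23.0), which falls between the sides in 4 conditions and just below both at PT 7 d LEV.

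Among all tested genes, 5.26% were higher and 2.71% were lower on the infarcted side in 5 of 5 pairs. These shares were 3.53% and 5.62% after TMM scaling, which corrects for differences in RNA composition. All 5 infarcted libraries lay above all 5 non-infarcted libraries in 0.212% of genes. Of the 8 TGF-beta genes, 1 (Tgfbr2) was higher in 5 of 5 pairs and 0 were lower in 5 of 5. Nothing is read from that count or from the separation of the Tgfbr2 libraries, because the set was selected on the side difference of Tgfbr2. The limma test of the sides over all genes called 0 genes (0%) at an adjusted p under 0.05, with 1221 genes at an unadjusted p under 0.05. edgeR on the recovered reads called 0 genes (1323 unadjusted) and DESeq2 called 15.

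**Figure D1:**
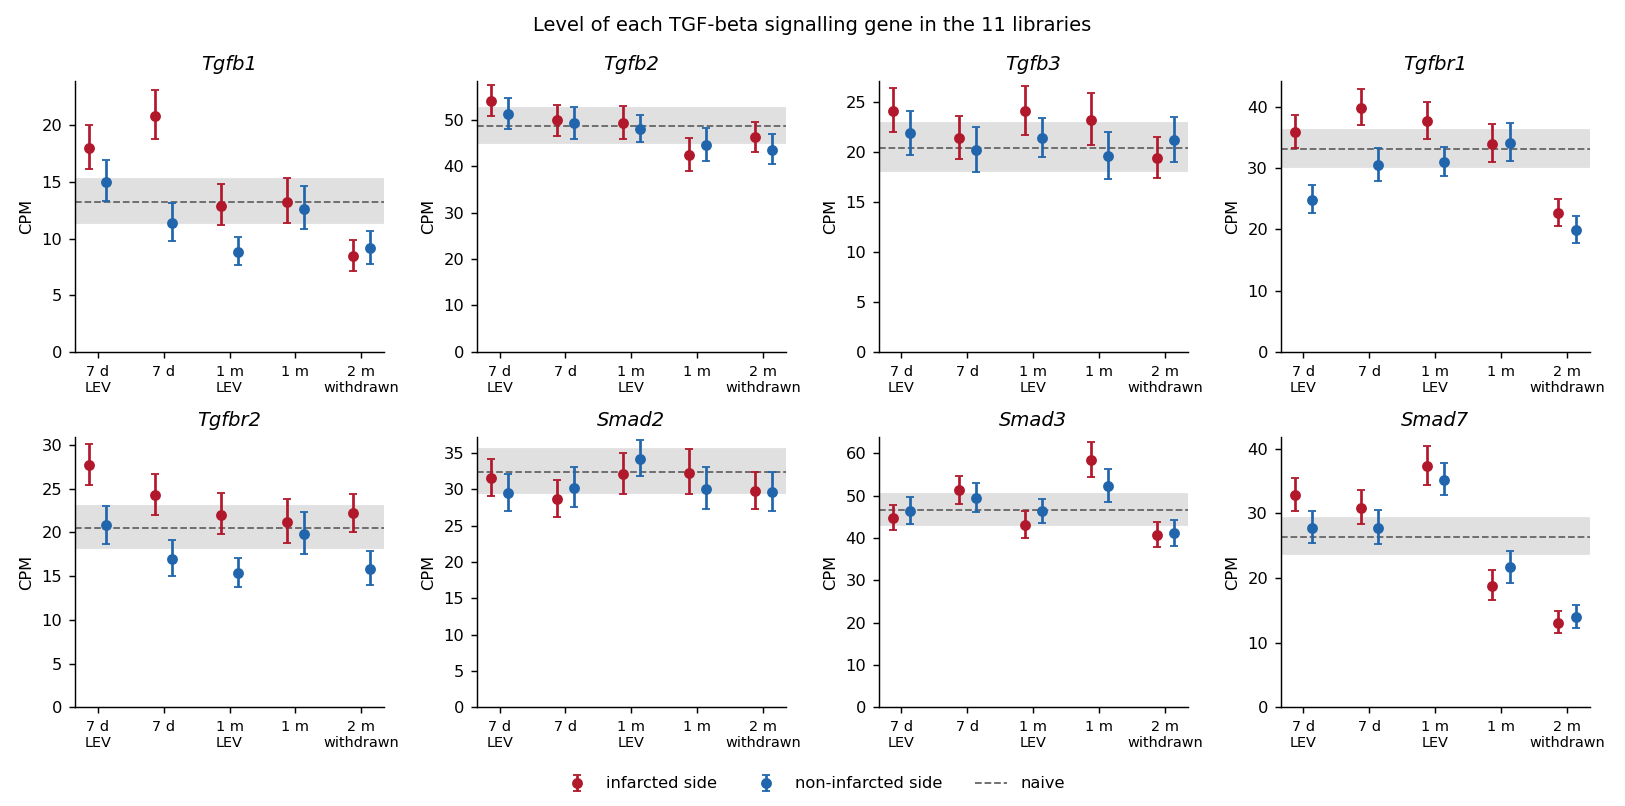
Level (CPM, linear axis from 0) of each of the 8 genes in the infarcted (red) and non-infarcted (blue) libraries of the 5 PT conditions, each point 1 library with its exact Poisson 95% interval; the dashed line and band are the naive library and its interval. Tgfbr2 is higher in red than in blue in all 5 conditions, Smad7 is highest in both PT 1 m LEV libraries (37.3 and 35.2 CPM) and lowest in both PT 2 m libraries (13.1 and 14.0 CPM), and Smad2 varies little.

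Tgfbr1 (ENSMUSG00000007613.15, chr4:47353222-47414931, plus strand), the kinase that passes the signal to Smad2 and Smad3, had 35.9, 39.9, 37.6, 34.0 and 22.6 CPM on the infarcted side in the same order of conditions, against 24.9, 30.5, 31.0, 34.1 and 19.9 CPM on the other side. The side difference was 0.51 and 0.38 on the log2 scale at PT 7 d LEV and PT 7 d, 0.27 at PT 1 m LEV, -0.0031 at PT 1 m and 0.18 at PT 2 m, with a mean of 0.27 ± 0.20 (SD, n = 5). The infarcted side was thus higher in 4 of 5 pairs, and counting intervals were apart in 3 of them, both 7 d pairs and PT 1 m LEV. Over time, the receptor was lowest in both 2 m libraries, and its naive level was 33.1 CPM. The side difference at 1 m minus that at 7 d was -0.31 ± 0.12 (log2, SE), given without a test.

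Among the ligands, Tgfb1 (ENSMUSG00000002603.15, chr7:25687002-25705077, plus strand), the form that microglia and blood cells make, varied most. It had 18.0, 20.9, 12.9, 13.2 and 8.45 CPM on the infarcted side, against 15.0, 11.4, 8.85, 12.6 and 9.14 CPM on the non-infarcted side. The PT 7 d infarcted library was the highest of all 11, and the largest side difference was in that condition (log2 0.82). The mean difference was 0.30 ± 0.36 (SD, n = 5), higher in 4 of 5 pairs, and the groups overlapped. Counting intervals of the sides were apart at PT 7 d and PT 1 m LEV. At PT 2 m the difference was -0.10, and both 2 m libraries lay below the interval of the naive library, which had 13.2 CPM.

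Tgfb2 (ENSMUSG00000039239.14, chr1:186622792-186705989, minus strand) is the ligand that depends most on co-receptors to reach Tgfbr2. It had 54.1, 49.9, 49.3, 42.4 and 46.2 CPM on the infarcted side, against 51.3, 49.3, 48.1, 44.6 and 43.6 CPM on the other, and 48.7 CPM in naive hippocampus. All pairs had overlapping intervals, and the mean side difference of 0.027 ± 0.062 (SD, n = 5) was smaller than its spread. Tgfb3 (ENSMUSG00000021253.7, chr12:86056745-86079041, minus strand), the third ligand, had 24.1, 21.4, 24.1, 23.2 and 19.4 CPM on the infarcted side, against 21.9, 20.2, 21.4, 19.6 and 21.2 CPM on the non-infarcted side and 20.4 CPM in naive. Its mean side difference was 0.098 ± 0.13 (SD, n = 5), positive in 4 of 5 pairs, with overlapping intervals in all of them. Both genes have genes annotated on the opposite strand (Gm26169 and Gm29491 for Tgfb2, Ttll5, Gm37804 and Gm48008 for Tgfb3); the row names of the table carry the strand, and it matched the annotation for all 8 genes.

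Smad2 (ENSMUSG00000024563.16, chr18:76241580-76310963, plus strand) and Smad3 (ENSMUSG00000032402.12, chr9:63646767-63757994, minus strand), which carry the signal into the nucleus, did not separate by side. Smad2 had 31.5, 28.6, 32.1, 32.3 and 29.8 CPM on the infarcted side, against 29.4, 30.2, 34.2, 30.1 and 29.6 CPM on the non-infarcted side. Its highest library was only 1.19 times its lowest, and all 10 PT libraries had intervals that overlapped the naive one (32.3 CPM). Smad3 had 44.8, 51.3, 43.1, 58.4 and 40.8 CPM on the infarcted side, against 46.4, 49.5, 46.4, 52.3 and 41.1 CPM on the other. The mean side differences were 0.0073 ± 0.089 for Smad2 and 0.0086 ± 0.10 for Smad3 (log2, SD, n = 5 each), and under TMM scaling both means were below 0 (-0.017 and -0.016). Smad7 (ENSMUSG00000025880.11, chr18:75367529-75395935, plus strand), the feedback inhibitor, had 32.8, 30.9, 37.3, 18.8 and 13.1 CPM on the infarcted side, against 27.8, 27.8, 35.2, 21.7 and 14.0 CPM on the non-infarcted side. Its side difference of 0.036 ± 0.17 (SD, n = 5) was within its spread, and both sides of a condition lay close together in a range that was 2.85-fold over the 11 libraries.

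**Figure D2:**
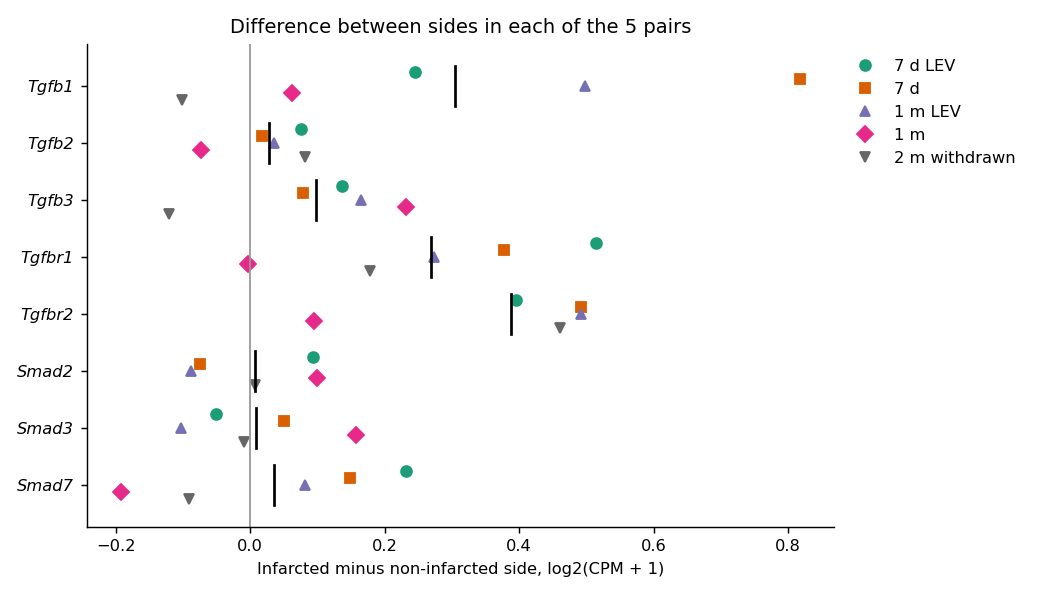
Infarcted minus non-infarcted side, as the difference of log2(CPM + 1), for each of the 8 genes (rows) in each of the 5 pairs (symbols); the black bars are the means. All 5 points lie right of 0 for Tgfbr2 alone, the PT 7 d point of Tgfb1 is the farthest from 0 (0.82), and Smad2 and Smad3 scatter around 0.

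Levels of microglial genes moved with the side as well. The 12 microglia markers summed to 888, 1484, 797, 743 and 762 CPM on the infarcted side, against 644, 612, 664, 672 and 725 CPM on the non-infarcted side and 618 CPM in naive, with the sides not overlapping, and all 12 had a mean side difference above 0 (median log2 0.41). The 10 astrocyte markers summed to 2580 to 3409 CPM on the infarcted side and 2519 to 3218 CPM on the other, and 10 of 10 had a mean difference above 0 (median 0.092). Endothelial markers summed to 154 to 243 CPM on the infarcted and 163 to 217 CPM on the non-infarcted side, with 8 of 10 above 0 (median 0.041). The 11 markers of pericytes, smooth muscle and fibroblasts summed to 203 to 359 CPM on the infarcted and 203 to 289 CPM on the non-infarcted side, with 8 of 11 above 0 (median 0.056). The 8 choroid plexus markers, all above 0 (median 0.30), summed to 55.8 to 4806 CPM on the infarcted and 103 to 3919 CPM on the non-infarcted side. Blood cell markers summed to 24.4 to 52.2 CPM on the infarcted and 11.9 to 64.6 CPM on the non-infarcted side, with 4 of 4 tested above 0 (median 0.23). Oligodendrocyte markers had 6 of 8 above 0 (median 0.078). Of the 12 hippocampal neuron markers 2 were above 0 (median -0.059), and 3 were lower on the infarcted side in 5 of 5 pairs: Neurod6 (-0.30), Spink8 (-0.32) and Rgs14 (-0.13), none of which passed (limma, adjusted p = 0.245, 0.339 and 0.552). Microglia express Tgfbr1, Tgfbr2 and Tgfb1, and the part of cell numbers in the differences between sides was not tested. The PT 7 d infarcted library had the highest microglia sum (1484 CPM) and the highest Tgfb1 and Tgfbr1 levels. Tgfbr2 was highest in PT 7 d LEV infarcted, which had the next highest sum (888 CPM). The side difference of Tgfbr2 was 0.49 at PT 7 d, where the sums of the sides were 1484 and 612 CPM. At PT 2 m it was 0.46, with sums of 762 and 725 CPM. Over the 11 libraries the microglia sum had a Pearson r of 0.57 with Tgfbr2, 0.62 with Tgfb1 and 0.42 with Tgfbr1. For Tgfbr1 the r was larger in size with the sum of blood cell markers (0.69) and with that of oligodendrocyte markers (-0.59).

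**Figure D3:**
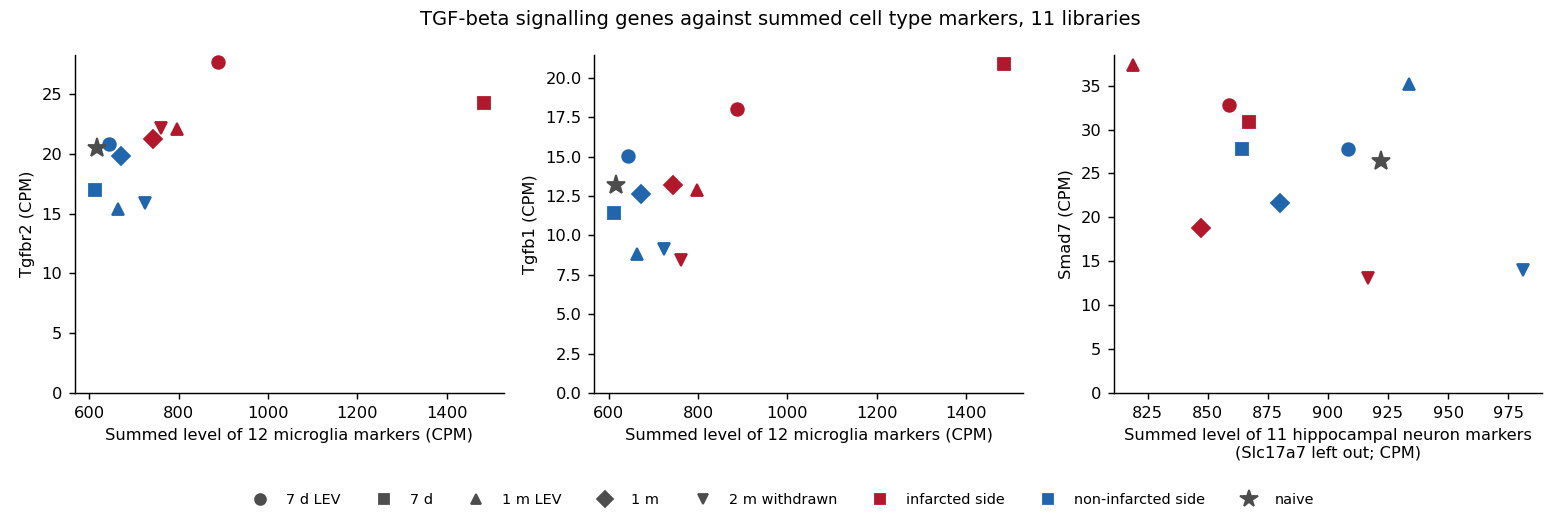
Level (CPM) of Tgfbr2 and of Tgfb1 against the summed level of 12 microglia markers (CPM), and of Smad7 against the summed level of 11 hippocampal neuron markers (CPM, Slc17a7 left out), 1 point per library; y axes start at 0, x axes do not. The PT 7 d infarcted library stands far to the right (1484 CPM) in both microglia panels, and in the neuron panel both PT 1 m LEV libraries, the highest for Smad7, lie at 819 and 934 CPM, the lowest sum of the 11 libraries and one of the higher ones.

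The comparison of LEV with no LEV asked which genes differed with the drug at PT 7 d and PT 1 m. The stated reason for the choice of the genes was a side difference and not this comparison, though earlier results of these data were known. None of the 8 passed the limma test on the 4 condition means, which called 0.0187% of all genes. Smad7 had the highest estimate, a log2 change of 0.43 ± 0.15 (SE; limma, adjusted p = 0.729), and was higher with LEV in 4 of 4 pairs, or 3 of 4 after TMM scaling. The change was uneven: at PT 7 d Smad7 had 32.8 and 27.8 CPM with LEV on the infarcted and non-infarcted side, against 30.9 and 27.8 CPM without. At PT 1 m it had 37.3 and 35.2 CPM with LEV, against 18.8 and 21.7 CPM without, which are log2 differences of 0.95 and 0.68.

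Tgfb2 and Tgfb3 were also higher with LEV in 4 of 4 pairs, by 0.12 and 0.11 on the log2 scale (adjusted p = 0.900 and 0.919), and did not pass. Together with Smad7 that made 3 of 8 genes, where 8.65% of all genes had this pattern. Smad3 was lower with LEV in 4 of 4 pairs, 1 of 8 genes, as were 12.4% of all genes. Its LEV libraries had 44.8 and 46.4 CPM at PT 7 d and 43.1 and 46.4 CPM at PT 1 m, against 51.3, 49.5, 58.4 and 52.3 CPM in the matching libraries without LEV. The 4 LEV libraries all lay below the 4 others, as in 1.73% of genes (1.51% had all 4 above), and the fitted change was -0.22 ± 0.12 (SE; adjusted p = 0.823), which did not pass. Naive hippocampus had 46.6 CPM of Smad3, close to the LEV libraries, and PT 1 m infarcted was the single PT library whose interval was apart from it. The estimates for Tgfb1 (-0.083), Tgfbr1 (-0.10), Tgfbr2 (0.043) and Smad2 (0.067) were smaller than their standard errors (0.12 to 0.14).

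**Figure D4:**
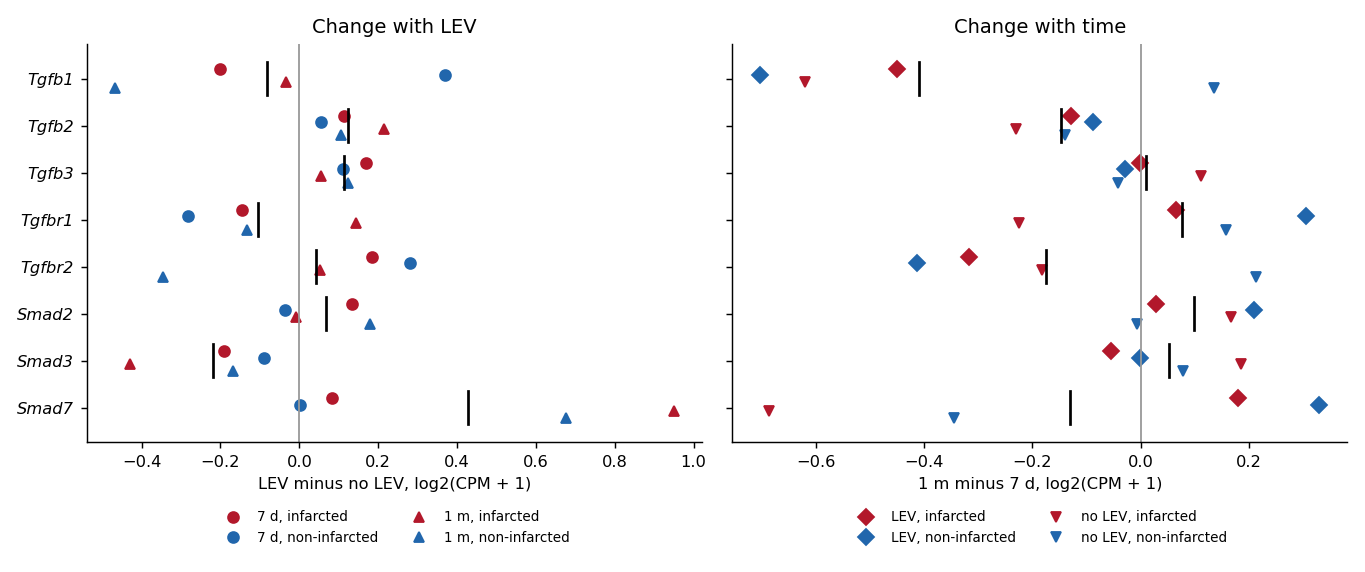
Differences of log2(CPM + 1) for each gene (rows): LEV minus no LEV on the left, 1 m minus 7 d on the right, with 4 pairs each as points and black bars for the means. On the left, Smad7 reaches 0.95 and 0.68 at 1 m and lies near 0 at 7 d, and all 4 Smad3 points are left of 0; on the right, Tgfb1 has 3 of 4 points left of 0.

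Because the LEV difference of Smad7 was so much larger at 1 m, a test of the LEV change at PT 1 m against the LEV change at PT 7 d was added after its values were seen. In that fit the difference was 0.77 ± 0.15 (log2, SE), with an adjusted p of 0.0311, and 2.79% of all genes passed. The values that prompted the test are those it was run on, so this p is not independent support. The fit treats both sides as separate samples although they may share animals, and it was under the threshold in 6 of 13 alternatives, with values of 0.52 to 0.94 and adjusted p of 0.0196 to 0.193. The call was lost without any 1 of both PT 1 m LEV libraries, both PT 7 d LEV libraries or PT 1 m infarcted. Tgfbr2 had the next smallest p of the set, with a difference of -0.38 ± 0.16 (SE; adjusted p = 0.225), and the other genes had adjusted p of 0.455 to 0.901. Both PT 1 m LEV libraries lay above the other 9 for Smad7, and 10% of all genes had the same pattern. One gene among the hippocampal neuron markers had the same pattern: Slc17a7, a vesicular glutamate transporter, had 1606 and 1603 CPM in the PT 1 m LEV libraries, against 498 to 936 CPM in the others. The other 11 neuron markers summed to 819 and 934 CPM there, against 847 to 981 CPM in the others, and of all 12 markers 6 were above 0 and 6 below 0 in the added test (median 0.011). All 8 oligodendrocyte markers were above 0 in it (median 0.32), of which 3 passed, and their part in the Smad7 difference was not tested. Without the libraries low in choroid plexus genes, 1 of which is PT 1 m LEV non-infarcted, the difference was 0.52 (adjusted p = 0.190).

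The comparison of 1 m with 7 d asked how levels changed as the lesion aged. limma called 15.8% of all genes, 917 higher and 1620 lower at 1 m, or 185 higher and 149 lower after TMM scaling. Of the 8 genes, 0 passed. Tgfb1 came closest: it had 12.9, 8.85, 13.2 and 12.6 CPM at 1 m (LEV infarcted, LEV non-infarcted, infarcted, non-infarcted), against 18.0, 15.0, 20.9 and 11.4 CPM at 7 d. It was lower at 1 m in 3 of 4 pairs, and the fitted change of -0.41 ± 0.14 (log2, SE) missed the threshold with an adjusted p of 0.0501. Over 16 alternatives the adjusted p ran between 0.00978 and 0.440, and Tgfb1 passed in 4, among them those without PT 7 d non-infarcted (-0.61) and without PT 1 m LEV infarcted (-0.53). Without PT 7 d infarcted, the library highest in Tgfb1 and in microglia markers, the Tgfb1 change was -0.20. Without both libraries low in choroid plexus genes it was -0.30. Microglia markers summed to 664 to 797 CPM at 1 m, against 612 to 1484 CPM at 7 d, and their part in the Tgfb1 change was not tested.

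Tgfb2 was lower at 1 m in 4 of 4 pairs, as were 29.3% of all genes (23.3% after TMM scaling), by a small amount (-0.15 ± 0.12, SE; adjusted p = 0.438). Of the 8 genes, 1 had that pattern and 0 were higher at 1 m in 4 of 4 pairs, a pattern of 17.4% of genes. With TMM scaling 2 of the 8, Smad2 and Smad3, were higher at 1 m in 4 of 4 pairs, as were 22.1% of genes. The remaining estimates were -0.17 for Tgfbr2, -0.13 for Smad7, 0.099 for Smad2, 0.076 for Tgfbr1, 0.052 for Smad3 and 0.0096 for Tgfb3, with adjusted p of 0.411 to 0.970. Smad7 hides opposite pairs in that mean: with LEV it was higher at 1 m by 0.18 and 0.33 on the infarcted and non-infarcted side, and without LEV it was lower, at -0.69 and -0.34. Over all genes, limma called a side difference that differed with time for 0% (1056 genes at an unadjusted p under 0.05) and one that differed with LEV for 0.168%. The 8 genes, selected on side differences, get values and no test here. For Tgfbr2 the side difference was 0.15 smaller at 1 m than at 7 d (-0.15 ± 0.16) and 0.15 larger with LEV than without (0.15 ± 0.16, SE), both within their standard errors.

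Against naive hippocampus, for which there was 1 library and no test, 0 of 8 genes reached a log2 difference of 1 with both sides going the same way in any of the 5 conditions. Over all genes that share was 0.922% at PT 7 d LEV, 1% at PT 7 d, 0.436% at PT 1 m LEV, 0.262% at PT 1 m and 2.14% at PT 2 m. The Smad7 level at PT 2 m came nearest, with log2 differences of -0.96 and -0.87 from naive on the infarcted and non-infarcted side. All 10 PT libraries overlapped the naive interval for Tgfb2, Tgfb3 and Smad2, and 9 of 10 did for Smad3. Between neighbours in the order of the 11 levels, counting intervals were apart in 0 of 10 steps for 6 of the genes, and in 1 of 10 steps for Tgfbr1 and for Smad7. For Tgfbr1 the order ran PT 7 d infarcted, PT 1 m LEV infarcted and PT 7 d LEV infarcted at the top and both 2 m libraries at the bottom. For Tgfb1 it began with PT 7 d infarcted and PT 7 d LEV infarcted and ended with PT 2 m infarcted.

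At PT 2 m after LEV withdrawal, against PT 1 m LEV, Smad7 was lower by more than a log2 of 1 on both sides. It had 13.1 and 14.0 CPM on the infarcted and non-infarcted side at PT 2 m, against 37.3 and 35.2 CPM at PT 1 m LEV, which are log2 differences of -1.44 and -1.27. The other 7 genes did not reach that size on both sides, while 1.77% of all genes were lower and 1.2% were higher by it on both sides, and there was no replicate for a test. Tgfbr1 differed by -0.71 and -0.62, and Tgfbr2, the receptor that pairs with it, by 0.0095 and 0.041. Both 2 m libraries lay below the other 9 for Tgfbr1, Smad3 and Smad7, 3 of 8 genes, where 11.9% of all genes had that pattern. Time after PT, withdrawal and any batch of the 2 m libraries cannot be told apart. The oligodendrocyte markers summed to 4315 and 5063 CPM in the 2 m libraries, against 2959 to 3962 CPM in the others, and their part was not tested.

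The rest of the pathway was read from 6 lists with 98 genes, 91 of them tested, that were written with earlier results of these data known. Between the sides 0 of 91 passed the test, and 79 of 91 had a mean above 0, against 9539 of 16057 genes overall. After TMM scaling these were 73 of 91 and 7705 of 16057. In 5 of 5 pairs, 10 of 91 were higher and 1 was lower on the infarcted side, beside 5.26% and 2.71% of all genes (3.53% and 5.62% with TMM), and nothing particular to the pathway is read from these counts. Medians of the lists were 0.13 for the latent complex and its activation (14 of 14 tested members above 0), 0.17 for microglial genes that need TGF-beta (9 of 9), 0.12 for transcriptional targets (17 of 22), 0.090 for co-receptors (8 of 10), 0.091 for the BMP and activin branch (19 of 22) and 0.061 for SMAD partners and brakes (16 of 18). The median of all tested genes was 0.019. Single genes that went 1 way in all pairs, none of which passed, included 0.25 for Ltbp3, which anchors latent ligand in the matrix, 0.17 for Itgb1, a subunit of integrins, 0.19 for Eng, an endothelial co-receptor, and 0.16 for Pmepa1, a target that restrains the signal. Among the microglial genes Tmem119 had 0.31 and Mertk, a receptor for dying cells, had 0.13. Klf10, an early target gene, was at -0.091 and lower in 5 of 5 pairs. The microglial list shares members, among them Tmem119 and P2ry12, with the microglia markers above.

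**Figure D5:**
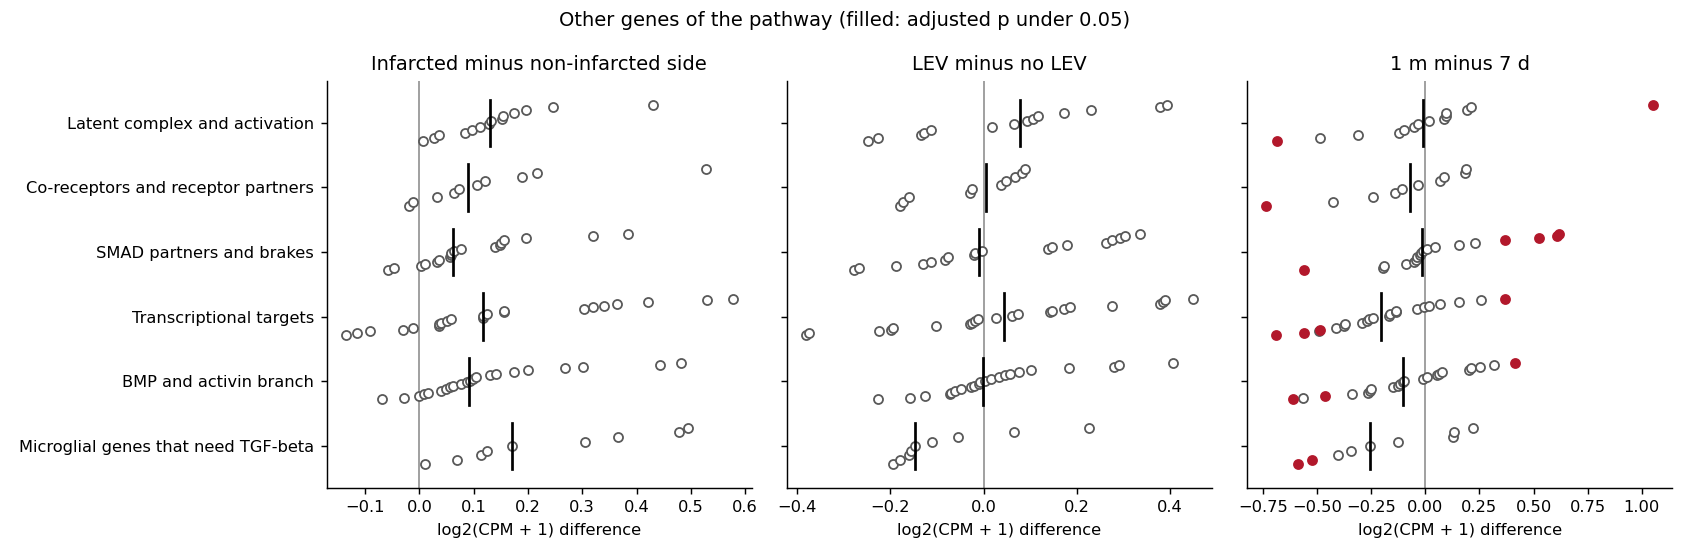
Mean log2(CPM + 1) difference of each tested gene (circles) in the 6 pathway lists (rows), for infarcted minus non-infarcted side, LEV minus no LEV and 1 m minus 7 d; black bars are list medians and filled red circles passed the limma test. Between sides 79 of 91 genes lie right of 0 and none is filled, none is filled for LEV, and 16 genes are filled for time, Ltbp1 farthest to the right (1.05).

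At 1 m against 7 d, 16 of 91 pathway genes (17.6%) passed the limma test, 6 higher and 10 lower, a share close to the 15.8% of all genes. After TMM scaling 0 of the 16 passed, and 0 passed without the filter on low genes, while edgeR called 5 and DESeq2 4 of them. Called in every fit with 1 library left out were 5 genes, Ltbp1, Itgb1, Tob1, Junb and Acvr1. Around the ligands, Ltbp1, which binds latent ligand, rose by 1.05 ± 0.18 (log2, SE; adjusted p = 0.000435) to 7.24, 5.54, 3.51 and 3.37 CPM at 1 m (LEV infarcted, LEV non-infarcted, infarcted, non-infarcted), against 2.13, 1.53, 1.77 and 1.62 CPM at 7 d. Itgb1 fell by 0.68 (adjusted p = 0.00102) and Dab2, an adaptor that links receptors to SMADs, fell by 0.73 (adjusted p = 0.00547). Among SMAD partners and brakes 4 rose and 1 fell. Smad4, the common partner of Smad2 and Smad3, rose by 0.62 (adjusted p = 0.00421), Smurf2, a ubiquitin ligase that works with Smad7, by 0.61 (0.00598), Tob1, an antiproliferative SMAD partner, by 0.53 (0.00447) and Skil, a SMAD repressor and target, by 0.37 (0.0461). Sp1, a factor that acts with SMADs, fell by 0.56 (adjusted p = 0.0298).

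Of 22 tested target genes, 3 fell with time and 1, Skil, rose. Id1, an inhibitor of helix-loop-helix factors, fell by 0.56, Junb, a subunit of AP-1, by 0.49, and Tagln, a smooth muscle actin-binding protein, by 0.69 (adjusted p = 0.0151, 0.00827 and 0.0104). In the BMP and activin branch, the receptor Acvr2a rose by 0.41, while the receptor Acvr1 fell by 0.61 and Smad5, the transducer of BMP signals, by 0.46 (adjusted p = 0.0201, 0.00354 and 0.0191). Olfml3 and Fcrls, which microglia express, fell by 0.59 and 0.53 (adjusted p = 0.0118 and 0.0292), and without PT 7 d infarcted, the library highest in microglia markers, these were -0.32 and -0.13 (adjusted p = 0.221 and 0.697). Tagln was at -0.28 without PT 7 d LEV infarcted (adjusted p = 0.278) and at -0.42 without PT 1 m infarcted (0.353). In 7 of these 16 genes (Itgb1, Smad4, Smurf2, Tob1, Sp1, Junb and Acvr1), the naive and 1 m libraries stood apart from the 7 d and 2 m libraries. Of all tested genes 18.7% had that pattern, and the 16 were picked for a difference between 1 m and 7 d. For all 16, with or without the pattern, a batch shared by the 1 m libraries cannot be told apart from time.

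With LEV, 0 of 91 pathway genes passed. Genes that went 1 way in 4 of 4 pairs included 0.38 for Dcn, a proteoglycan that binds ligand, 0.45 for Id1 and 0.38 for Ccn2, a matricellular target (adjusted p = 0.624, 0.713 and 0.794). Skil and Tob1 were at 0.28 and 0.26 (adjusted p = 0.813 each), and Mmp14, a protease of the cell surface, was at -0.25 (0.823). In the added test of LEV at 1 m against 7 d, 1 of 91 pathway genes passed, where 2.79% of all genes did. It was Smad4, at 0.70 ± 0.12 (SE; adjusted p = 0.0233; passing in 7 of 13 alternatives, adjusted p 0.00729 to 0.178). Its level was 99.1 and 82.4 CPM at PT 1 m LEV on the infarcted and non-infarcted side, against 56.6 and 55.1 CPM at PT 1 m, and 48.1 and 43.4 CPM at PT 7 d LEV, against 45.1 and 47.1 CPM at PT 7 d. Naive hippocampus had 73.5 CPM of Smad4, and the PT 2 m libraries had 44.7 and 48.2 CPM.

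The side difference itself differed with LEV for 2 of 91 pathway genes, Bmp6 (1.47 ± 0.18, SE; adjusted p = 0.0336) and Bmp7 (1.63 ± 0.18, SE; adjusted p = 0.0239), ligands of the BMP branch; neither passed without the filter on low genes (adjusted p = 0.753 each). Bmp7 had 21.7 and 9.44 CPM on the infarcted side at PT 7 d LEV and PT 1 m LEV, against 8.76 and 6.12 CPM on the non-infarcted side. Without LEV it had 6.06 and 6.28 CPM on the infarcted side at PT 7 d and PT 1 m, against 9.03 and 13.3 CPM on the non-infarcted side. Choroid plexus markers moved in the same direction, with all 8 above 0 in that contrast (median 1.59), and so did 10 of 11 markers of pericytes, smooth muscle and fibroblasts (median 0.34). Their part was not tested.

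By likeness over the 11 libraries, the genes whose levels followed Tgfbr2 most closely among 11526 genes averaging 5 CPM or more were Vasp (Pearson r = 0.94), an actin regulator, Marcks (0.93), a membrane-bound actin regulator, Id3 (0.92), an inhibitor of helix-loop-helix factors, Sema3d (0.91), a secreted guidance protein, and Nudt14 (0.86). For Tgfb1 they were Rrbp1 (0.95), H2ac8 (0.93) and Zzef1 (0.93), for Tgfb2 Cox6b2 (0.94), Klf2 (0.93) and Rnf169 (0.93), and for Tgfb3 Pom121 (0.94), Hr (0.88) and Alg10b (0.88). Tgfbr1 was followed by S100a13 (0.96), Tmem123 (0.93) and Rp2 (0.92), Smad2 by C2cd2l (0.93), Slc6a11 (0.92) and Fbxo6 (0.92), and Smad3 by Ttc13 (0.92), Abat (0.91) and Dpy30 (0.89). Smad7 had the closest match of the set in Fbxo33 (0.97), followed by H3c7 (0.95) and Uck2 (0.95). Within the set the highest r was 0.73, for Tgfb1 with Tgfbr2 and for Tgfb2 with Smad7, followed by 0.72 for Tgfbr1 with Smad7, and Tgfbr2 with Smad3 had 0.078. These coefficients are picked as the highest of many over libraries that share conditions and sides, and they are a description with no test.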

How the data were processed

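CAGE libraries of 11 hippocampus samples were analysed from a deposited table of CPM per gene, which the authors made from reads scaled to the library total. The tools listed in the submitters' processing notes are HISAT2 2.0.5, BWA 0.7.17 and DESeq2 1.20.0, with the build GRCm38; what each did, and whether duplicates were removed, is not stated there. Whole reads were recovered for 100.0% of values (tolerance 0.0001). Of 22377 identifiers, 21747 matched GENCODE M21 with version. limma 3.58.1 (lmFit, eBayes with trend, R 4.3.3) was run on log2(CPM + 1) for genes with a mean of at least 1 CPM, so fold changes of low genes are understated, with Benjamini-Hochberg adjustment at 0.05. The fit of sides had a block for condition, leaving 4 residual degrees of freedom. LEV and time were fitted on 4 condition means, and the side differences on 4 differences (1 residual degree of freedom each, so the spread is mostly borrowed from other genes). The test of LEV at 1 m against 7 d used 8 libraries and was added after seeing the data. For the sides, p-values rest on how the side difference spread between conditions and on spread borrowed from other genes (8.01 prior beside 4 residual degrees of freedom). Those for LEV and time rest on how the LEV change differed between the times and on spread borrowed from other genes. None measures spread between replicates of a group. edgeR 4.0.16 and DESeq2 1.42.0 on recovered reads, other pseudocounts and filters, TMM scaling and leaving out libraries were alternatives. The fits were tested on simulated data. The genes and lists were chosen with earlier results of these data known. Named pathway genes were those past the threshold, otherwise up to 3 per list with the largest difference, at 5 CPM or more on average and going 1 way in all pairs; some are left out of the text. Smad4 in the added test was named after its value was seen.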

Additional observations from a re-analysis of the deposited data

Results flagged for a closer look

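Smad7 differed between the 2 times in its change with LEV, by 0.771 on the log2 scale (adjusted p = 0.0311 in limma, in a test added because of these values, so the p is not independent support); the same 0.771 is the change between 1 m and 7 d with LEV against that without, where both sides were higher at 1 m with LEV and lower at 1 m without.

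Smad3 was lower or level at 1 m against 7 d with LEV and higher without LEV, on both sides, a difference of -0.16 that did not pass the same test (adjusted p = 0.486). After TMM scaling Smad3 was higher at 1 m also with LEV, by 0.055 and 0.073 on the infarcted and non-infarcted side, so the directions no longer differed. The side difference of Smad3 was below 0 in both LEV conditions and above 0 in both without LEV, a difference of -0.181 that was not tested, since the genes were selected on side differences. After TMM scaling the PT 7 d side difference was -0.0032, so it was then not above 0 in both conditions without LEV.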

How the results depend on the processing

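Of the alternative values computed for single genes, 113 lost a call, 4 gained one, 28 were counted as sign changes and 1001 as unchanged. The 1001 include side differences of Smad2, Smad3 and Smad7 that fell below 0, so 28 is too low a count of sign changes. Their lowest values were -0.021, -0.029 and -0.013, against 0.0073, 0.0086 and 0.036 in the main fit. The sides of a condition were paired by the block in the fit of the sides and by the differences in the side difference fits. No other paired analysis was possible, because the labels carry no replicate numbers.

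Calls between sides numbered 0, with 15 in DESeq2 and 0 to 50 when 1 pair was left out (50 without PT 1 m). For LEV the 3 calls became 12 with a pseudocount of 0.5, 0 with a pseudocount of 5, without a filter, with TMM or with edgeR, 1 with DESeq2, with 8 independent libraries or without both libraries low in choroid plexus genes, and 0 to 62 with 1 library left out. For time the 2537 calls became 24 without a filter, 334 with TMM, 907 with edgeR, 824 with DESeq2, 4991 with 8 independent libraries, and 1061 to 2392 with 1 library left out. The 27 calls for LEV and side became 0 without a filter. The 448 calls for LEV and time became 1 without a filter, 238 without both choroid-low libraries and 0 to 725 with 1 library left out. Counts against naive with a log2 of at least 0.5, or with a pseudocount of 5, were 1069 and 87 at PT 7 d LEV, 1237 and 84 at PT 7 d, 932 and 18 at PT 1 m LEV, 353 and 19 at PT 1 m, and 2658 and 201 at PT 2 m; for withdrawal they were 3438 and 235. The cause of these shifts was not tested. Some settings used fewer libraries or other genes, while TMM scaling, other pseudocounts, edgeR and DESeq2 kept the same libraries and genes.

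Signs changed for estimates near 0 that did not pass or, for the sides, had no test. The cause was not tested. With 1 library left out, the LEV change ran from -0.29 to 0.12 for Tgfb1, -0.23 to 0.024 for Tgfbr1, -0.080 to 0.17 for Tgfbr2 and -0.27 to 0.046 for Tmem119. The time change ran from -0.048 to 0.067 for Tgfb3 and -0.053 to 0.20 for Tgfbr1, and the change of LEV with time from -0.10 to 0.0018 for Tgfb3 and -0.026 to 0.10 for Smad2. Without both choroid-low libraries, the LEV change was 0.057 for Tgfb1 and 0.0023 for Tmem119, the time change -0.0072 for Tgfb3 and -0.013 for Smad3, and the change of LEV with time 0.039 for Tgfb3 and -0.092 for Tgfbr1. Under TMM, Tgfb3 had 0.031 for LEV and side and 0.012 for LEV and time, and Smad2 had 0.029 for time and side and 0.026 for LEV and side. The depth of 154 to 1077 reads per gene and library limits single pairs more than the means.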
